A study of Mus musculus with 40 samples.

Results

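Bdnf, the gene of brain-derived neurotrophic factor, was followed through every aortic library of a study of angiotensin-II (Ang-II), the pressor hormone of the renin-angiotensin system. It is the 1 row named Bdnf among 17402 genes listed in a genotype experiment and among 15399 genes listed in an experiment with cyclosporin A (CsA). The gene was chosen by its 2 h signal values, for their large rise over untreated aortas, with no set threshold, so that all differences that use 2 h libraries are given as a description without a test. Tests were kept for the other comparisons, and those against untreated aortas share their untreated libraries with the choice.

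BDNF is a secreted growth factor of the neurotrophin family, best known from neurons, where its gene responds to calcium entry and electrical activity. It is made as a precursor that furin-like convertases cut inside the cell and that plasmin and matrix metalloproteinases can cut outside it. The mature factor binds the receptor tyrosine kinase TrkB, the product of Ntrk2, and the precursor binds the low-affinity receptor Ngfr together with sortilin, the product of Sort1. In vessels, BDNF and TrkB have been described in endothelial and smooth muscle cells. Calcineurin (Cn), the enzyme this study manipulates, is a calcium-dependent phosphatase that activates NFAT transcription factors.

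The genotype experiment held 22 libraries from mice with a floxed CnB1 gene (Ppp3r1, the regulatory subunit of Cn). The Cn-Ctl mice of these libraries are labelled as Cre-negative, although the controls of the study as a whole also included mice with this Cre and unfloxed CnB1. SM-Cn-/- mice carried Myh11-CreERT2, a tamoxifen-inducible Cre under a smooth muscle promoter that sits on the Y chromosome. Mice of both genotypes were given tamoxifen at 1 mg per day for 5 days when 10 to 12 weeks old and were used 6 weeks later. Some stayed untreated, and the others were infused with Ang-II (1 µg/kg/min) through an implanted minipump and sampled after 2, 6, or 24 h. The CsA experiment held 18 libraries from C57BL/6J mice, either wild type (WT) without a pump for the drug or given CsA at 5 mg/kg/day by minipump for 5 days, and then left untreated or infused with the same dose of Ang-II for 2 or 24 h. These mice were 10 to 12 weeks old at the time of the CsA pump, so the mice of the genotype experiment were older when used. CsA binds cyclophilin and thereby blocks the phosphatase activity of Cn.

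All mice were male, and each library pooled 3 aortas from which adventitia and perivascular tissue had been removed. Groups held 3 libraries, except for 2 untreated Cn-Ctl libraries, where the authors dropped 1 replicate after a principal component analysis, and 2 Cn-Ctl libraries at 24 h. Ang-II-treated Cn-Ctl, WT, and CsA mice were kept only if systolic pressure exceeded 130 mmHg, whereas SM-Cn-/- mice were kept at any pressure, so genotype and this selection cannot be told apart after Ang-II. SM-Cn-/- mice without a verified deletion, and CsA mice in which NFAT in the thymus was not affected, were dropped by the authors. Nothing in the labels ties libraries to separate litters or days, and p-values measure only the spread between these pools. In pools of whole tissue, fewer cells of a type and less RNA per cell cannot be told apart.

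The values are normalized signals, close to a scale of reads per 1000000: the reads of a gene plus 0.5 over a library size that the authors scaled. Libraries held, in units of 1000000 reads, 2.73 to 10.25 in the genotype experiment and 18.98 to 38.9 in the CsA experiment, and Bdnf itself had 37 to 718 and 264 to 1817 reads. Ppp3r1 signal, the check of the deletion, averaged 87.6 ± 27.5 (SD, n = 10) in Cn-Ctl and 73.0 ± 22.5 (SD, n = 12) in SM-Cn-/- libraries, and the ranges of 45.7 to 134 and 41.8 to 118 overlapped, as far as a count over the whole gene in whole aorta can show. All 6 smooth muscle markers were listed, with a summed signal of 20219 to 48464 in the genotype experiment and 15723 to 34726 in the CsA experiment, above the other cell types examined. One library stood apart: the CsA library labelled Ang-II 2 h replicate 3 had a summed signal of 921 over 6 neuron markers, against 10.6 and 16.3 in the other libraries of its group, and untreated CsA replicate 3 had 190.

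In the mouse genome (GRCm38), Bdnf lies on the plus strand of chromosome 2, at chr2:109674700-109727007, with 11 annotated transcripts and 6217 bases of exon. Several 5′ exons, each with its own start, join to 1 coding exon, and the deposited values sum over all of them. RefSeq (GRCm38.p6) gave 7 windows of 250 bases before a Bdnf start. A pair of these windows is shown because they hold the 2 least common motifs found. One is a loose form of the motif of AP-1, the Fos and Jun dimer whose genes are described further on. The other is related to the CRE bound by CREB. Capitals mark the motif, and the start follows the last base.

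Window 2, chr2:109676782-109677031, plus strand, AP-1 motif: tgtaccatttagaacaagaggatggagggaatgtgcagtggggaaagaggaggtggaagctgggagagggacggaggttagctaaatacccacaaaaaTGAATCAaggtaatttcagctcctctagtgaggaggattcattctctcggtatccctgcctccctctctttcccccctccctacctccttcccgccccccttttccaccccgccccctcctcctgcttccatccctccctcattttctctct
Window 3, chr2:109692186-109692435, plus strand, CRE-like motif: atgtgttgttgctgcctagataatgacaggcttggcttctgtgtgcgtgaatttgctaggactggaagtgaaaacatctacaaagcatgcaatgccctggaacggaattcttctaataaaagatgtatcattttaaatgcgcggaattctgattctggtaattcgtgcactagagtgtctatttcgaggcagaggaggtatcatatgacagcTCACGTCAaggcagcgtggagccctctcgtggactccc

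The AP-1 motif was searched as TGANTCA, a loose form with any base at N, and the match found has an A there. It stood 152 bases before the start at chr2:109677032, in 1 of the 7 windows. Of the 32851 windows of the same length before mouse genes, 6.75% hold this loose form on either strand. The CRE-like motif TGACGTGA, here on the minus strand and thus read as its reverse complement, stood 38 bases before the start at chr2:109692436, and 0.350% of all windows hold it. It was added to the search after this window had been read, and it contains the only copy in the 7 windows of TGACG, the short CRE core, which 17.8% of all windows hold. The full CRE TGACGTCA (1.55% of all windows), the E-box CACGTG (6.02%), and the CArG box (1.47%) were not among the letters of the 7 windows. The NFAT core GGAAA was in 6 of 7 windows and in 55.6% of all. Motifs were searched on both strands, these matches only describe letters, and the tables do not tell which start was used.

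In untreated aortas Bdnf was low in the 4 arms, with group means between 10.2 and 15.3. Signals were 5.46 and 16.9 in the Cn-Ctl libraries, from 37 and 92 reads, whose 95% Poisson intervals were 3.87 to 7.50 and 13.6 to 20.7. They were 24.4, 12.4, and 9.10 in SM-Cn-/-, 12.6, 11.9, and 11.4 in WT, and 9.69, 10.8, and 10.2 in CsA libraries. The untreated genotype libraries thus spread several-fold within a group, whereas those of the CsA experiment lay close together. These intervals cover counting error only.

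**Figure D1:**
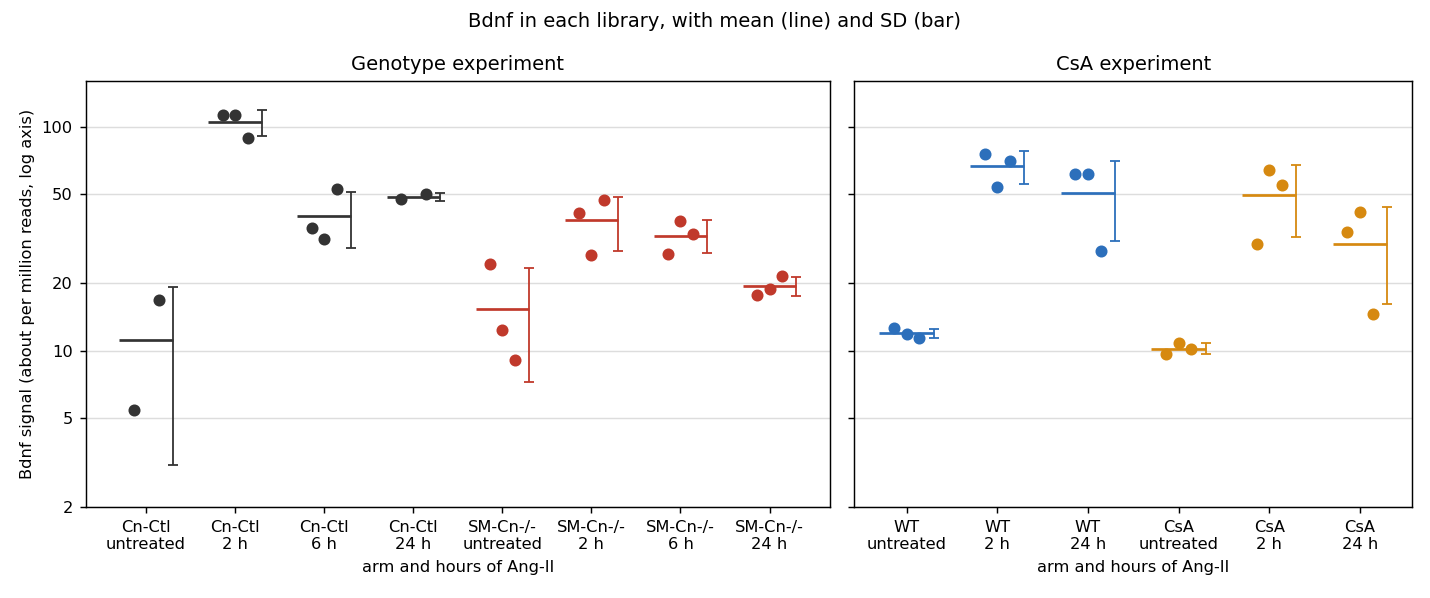
Bdnf signal (log axis, about per 1000000 reads) in each of the 40 libraries by arm and hours of Ang-II. Points are libraries, horizontal lines group means, and bars the SD. The Cn-Ctl libraries at 2 h (88.7 to 113) lie above all other libraries of their experiment, and the SM-Cn-/- libraries at 2 h (26.7 to 46.9) lie below every Cn-Ctl library at that time.

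After 2 h of Ang-II the group mean of Bdnf was highest in every arm, which is the value it was chosen for. In Cn-Ctl aortas the signal was 113, 113, and 88.7, a mean of 105 ± 14.2 (SD, n = 3) against 11.2 ± 8.08 (SD, n = 2) before. In SM-Cn-/- aortas it was 41.4, 26.7, and 46.9, a mean of 38.3 ± 10.5 (SD, n = 3) against 15.3 ± 8.07 (SD, n = 3). Every treated library lay above every untreated library of its arm, and the lowest Cn-Ctl library at 2 h lay above the highest SM-Cn-/- library.

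The fitted rise on the log2(signal + 0.5) scale was 3.37 (SE 0.38) in Cn-Ctl and 1.38 (SE 0.34) in SM-Cn-/-, which put Bdnf at rank 35 and rank 139 by size of rise among 14424 protein-coding genes. SM-Cn-/- at 2 h stood 1.47 (SE 0.34) below Cn-Ctl at 2 h, at a fitted log2 difference of -1.47, and the rise was smaller by 1.99 (SE 0.51), a difference between the responses of -1.99. The last value depends on a pair of untreated Cn-Ctl libraries: it was -1.22 without replicate 2, where Bdnf was lowest, and -2.76 without replicate 3. Endothelial markers moved with genotype, since the summed signal of all 5 was 637 to 825 in SM-Cn-/- and 282 to 520 in Cn-Ctl at 2 h, and their part in the difference was not tested.

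In WT aortas Bdnf reached 75.7, 54.1, and 70.6 at 2 h, a mean of 66.8 ± 11.3 (SD, n = 3) against 11.97 ± 0.592 (SD, n = 3). In CsA aortas it reached 30.1, 64.2, and 55.0, a mean of 49.8 ± 17.7 (SD, n = 3) against 10.2 ± 0.568 (SD, n = 3). Treated and untreated libraries did not overlap within an arm, while the WT and CsA libraries at 2 h did overlap. The value of 55.0 belongs to the library with the neuron markers and lay between those of the other 2.

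The fitted log2 rise was 2.42 (SE 0.35) in WT, rank 54 of 13738 genes, and 2.16 (SE 0.35) in CsA, rank 34. CsA at 2 h differed from WT at 2 h by -0.48 (SE 0.35) on the log2 scale. The responses differed by -0.26 (SE 0.50), and this small value turned to 0.06 without CsA Ang-II 2 h replicate 1, in which Bdnf was 30.1. Smooth muscle markers moved with CsA, with a summed signal of 19489 to 25208 in CsA and 27593 to 34726 in WT at 2 h, and so did the 5 fat markers, at 1799 to 4952 and 919 to 1536; their part in the values was not tested.

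Across experiments, which were normalized apart and are set side by side only, the order of the group means was in part clear and in part not. In the genotype experiment Cn-Ctl at 2 h (105) stood above the next group, Cn-Ctl at 24 h (48.7), by 56.4, more than the larger SD of 14.2. Below it, Cn-Ctl at 24 h, Cn-Ctl at 6 h (39.8), SM-Cn-/- at 2 h (38.3), and SM-Cn-/- at 6 h (32.7) each differed from the next by less than the larger SD of the pair. SM-Cn-/- at 6 h stood 13.2 above SM-Cn-/- at 24 h (19.4), which overlapped with untreated SM-Cn-/- and lay above both untreated Cn-Ctl libraries. In the CsA experiment both untreated groups lay below all treated ones, and neighbours among the treated groups overlapped, apart from the gap between CsA at 24 h (30.0) and untreated WT (11.97). Untreated WT stood 1.74 above untreated CsA (10.2), without overlap, against an SD of 0.592.

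At 6 h, which only the genotype experiment sampled, Bdnf in Cn-Ctl aortas was lower than at 2 h and still above the untreated level. In SM-Cn-/- aortas all libraries at 6 h (27.0 to 37.9) lay above the untreated ones (9.10 to 24.4). They overlapped with the SM-Cn-/- libraries at 2 h (26.7 to 46.9). The Cn-Ctl signal was 35.5, 31.5, and 52.5, and the SM-Cn-/- signal was 27.0, 37.9, and 33.1. The genotypes overlapped at this time. The rise over untreated passed the test in Cn-Ctl, at a log2 difference of 1.95 (SE 0.38, adjusted p = 0.0038, limma), where 3.97% of all genes were called, and did not in SM-Cn-/-, at 1.18 (SE 0.34, 95% interval 0.47 to 1.88, adjusted p = 0.070, limma), where 2.34% were.

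The 6 h call in Cn-Ctl was lost without untreated Cn-Ctl replicate 2, where Bdnf was lowest, and the log2 difference fell to 1.18. Without untreated Cn-Ctl replicate 3 the difference was larger, at 2.72. The SM-Cn-/- difference, in turn, passed without untreated SM-Cn-/- replicate 1, at 1.56 (adjusted p = 0.022, limma). SM-Cn-/- and Cn-Ctl at 6 h differed by -0.26 (SE 0.34, 95% interval -0.97 to 0.45, adjusted p = 0.80, limma), with 1.98% of genes called. The 6 h responses differed by -0.78 (SE 0.51, 95% interval -1.84 to 0.29, adjusted p = 0.91, limma), where 0.0624% of genes were called. No difference between genotypes was detectable at this time, and the intervals leave room for a lower as well as a slightly higher level in SM-Cn-/-.

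At 24 h the genotypes stood apart again. Bdnf was 47.4 and 50.1 in Cn-Ctl and 17.8, 18.9, and 21.6 in SM-Cn-/- aortas, without overlap and with small spread in both groups. Relative to untreated aortas, Cn-Ctl had risen by 2.27 on the log2 scale (SE 0.42, adjusted p = 0.0022, limma; 5.62% of genes called), and SM-Cn-/- differed by 0.45 (SE 0.34, 95% interval -0.26 to 1.158, adjusted p = 0.68, limma; 0.79% called). The Cn-Ctl call was lost without untreated Cn-Ctl replicate 2, at 1.50 (adjusted p = 0.090, limma).

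The direct comparison at 24 h put SM-Cn-/- below Cn-Ctl by 1.31, at a log2 difference of -1.31 (SE 0.38, adjusted p = 0.0494, limma; 4.94% called), which is just past the threshold. It fell short of it in each of the 5 fits that left out 1 of its libraries, with values from -1.39 to -1.25 and adjusted p from 0.0795 to 0.283 (limma). The responses at 24 h differed by -1.82 (SE 0.54, 95% interval -2.94 to -0.70, adjusted p = 0.14, limma; 0.513% called), so a difference between the genotypes in the response itself did not pass the test. Endothelial markers summed to 1039 to 1118 in SM-Cn-/- and 432 to 448 in Cn-Ctl at this time, and their part was not tested.

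Between 6 h and 24 h no change of Bdnf passed the test in either genotype. The log2 difference was 0.32 (SE 0.38, 95% interval -0.47 to 1.11, adjusted p = 0.77, limma) in Cn-Ctl, with 1.27% of genes called, and -0.73 (SE 0.34, 95% interval -1.43 to -0.02, adjusted p = 0.47, limma) in SM-Cn-/-, with 0.305% called.

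In the CsA experiment Bdnf was still raised at 24 h. The signal was 61.8, 61.7, and 28.0 in WT and 34.0, 41.4, and 14.6 in CsA aortas, and the third library was the lowest in each arm. All treated libraries lay above all untreated ones of their arm. The rise was 1.94 (SE 0.35, adjusted p = 0.00051, limma) in WT, where 35% of genes were called, and 1.38 (SE 0.35, adjusted p = 0.024, limma) in CsA, where 8.98% were. The WT call held in all 6 fits that left out 1 of its libraries, whereas the CsA call was lost in 5 of 6, with adjusted p of up to 0.115 (limma), and was kept without CsA Ang-II 24 h replicate 3, where the difference was 1.83.

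That CsA library, with the lowest treated Bdnf of 14.6, also had the highest fat markers of its group, at 6137 against 2109 and 2992. Its smooth muscle markers were the lowest, at 18421 against 26069 and 26867, and the part of these markers in its Bdnf value was not tested. CsA and WT at 24 h differed by -0.78 (SE 0.35, 95% interval -1.52 to -0.03, adjusted p = 0.19, limma; 5.58% called), and their 24 h responses by -0.56 (SE 0.50, 95% interval -1.62 to 0.49, adjusted p = 0.50, limma; 9.42% called). Untreated CsA and WT aortas differed by -0.22 (SE 0.35, 95% interval -0.96 to 0.53, adjusted p = 0.68, limma; 25.2% called), and untreated SM-Cn-/- and Cn-Ctl by 0.51 (SE 0.38, 95% interval -0.28 to 1.31, adjusted p = 0.98, limma; 0.0139% called). The latter sign rests on untreated Cn-Ctl replicate 2, without which it was -0.26. In all, Bdnf passed in 5 of the 16 comparisons that could be tested. The passes in Cn-Ctl at 6 h and 24 h, in WT at 24 h, and in CsA at 24 h are against untreated libraries that also entered the choice of Bdnf. The remaining pass, SM-Cn-/- against Cn-Ctl at 24 h, compares no untreated library.

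**Figure D2:**
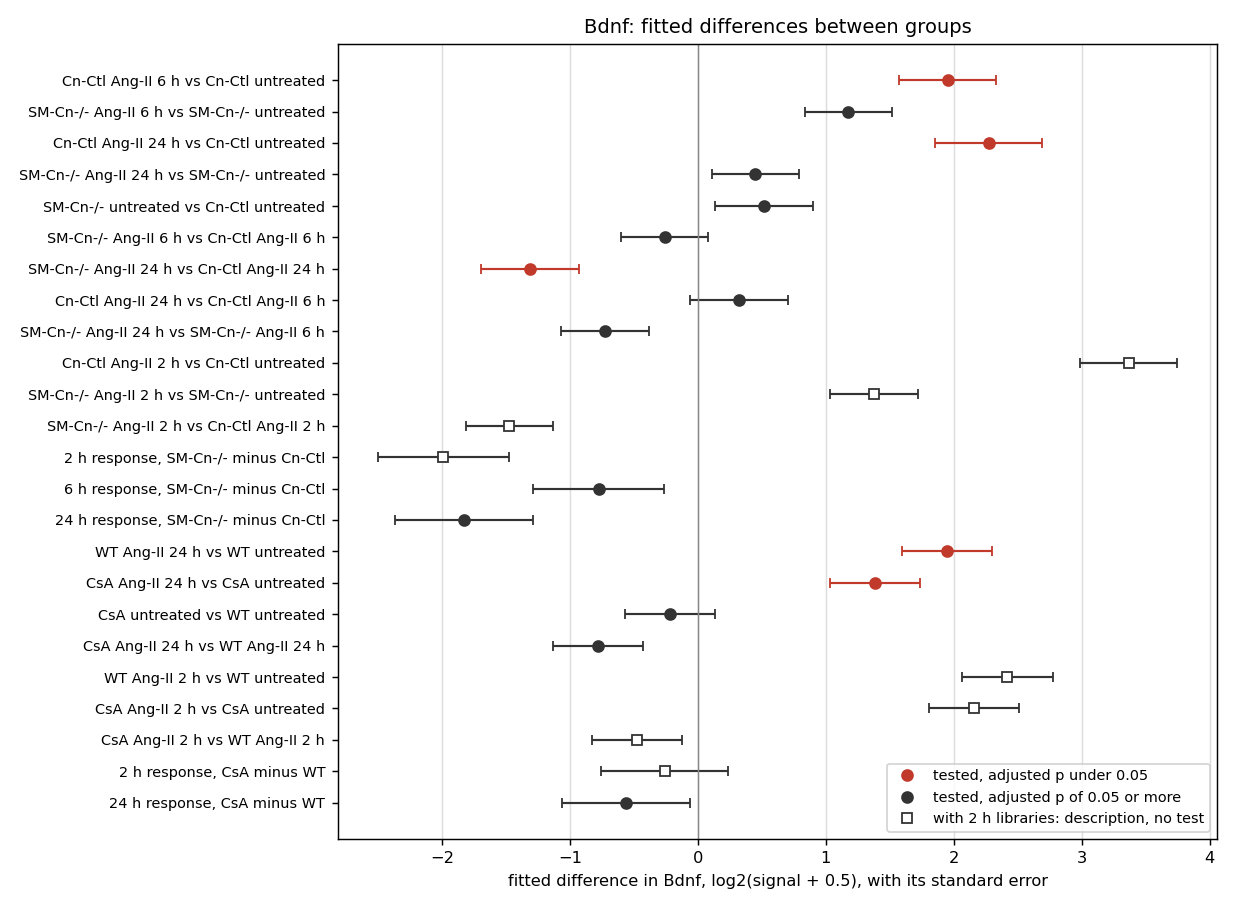
Fitted differences in Bdnf between groups, as log2(signal + 0.5), with standard errors as bars. Filled points were tested (red: adjusted p under 0.05) and open squares use 2 h libraries and were not; the rise is 3.37 in Cn-Ctl and 1.38 in SM-Cn-/- at 2 h, and 2.27 and 0.45 at 24 h.

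The next question is whether the other members of the neurotrophin system moved with Bdnf. Levels were compared between genes per kilobase of annotated exon, as mean signal per kb. Of the other ligands, Ntf3 (neurotrophin 3, the ligand of TrkC) averaged 26.7 per kb in the genotype experiment, above Bdnf at 6.37, and the values were 13.2 and 5.88 in the CsA experiment. Ntf5 was not among the genes listed. Of the receptors, Ntrk2 averaged 2.47 and 2.43 per kb in the 2 experiments, Ntrk3, which encodes TrkC, 9.72 and 7.19, and Sort1 12.4 and 16.7. Long alternative exons lower such per-kb values where few transcripts use them.

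Ngfr was near the detection limit in most libraries. Its signal had a median of 0.389 over the 22 genotype libraries and 1.60 over the 18 CsA libraries. The highest value, 122, was in the CsA library with the neuron markers, and untreated CsA replicate 3 followed with 51.6. Sensory and sympathetic neurons are known to express this receptor. Bdnf in these 2 libraries, 55.0 and 10.2, lay within the range of their groups.

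At 2 h neither Ntf3 nor any receptor tested passed in any arm. The count was 0 of 1 ligand tested in each arm, 0 of 6 receptors in each genotype, and 0 of 7 in WT and CsA (limma), where the share of all genes called was 6.23% for Cn-Ctl and 1.13% for SM-Cn-/-, and 21.4% and 20.1% for WT and CsA. At an unadjusted p under 0.05 there was 1 receptor in Cn-Ctl and 1 in CsA; edgeR called 0, and DESeq2 called 1 receptor in CsA. Ntf3, for instance, was 26.2, 22.2, and 28.8 in WT aortas at 2 h and 24.8, 31.4, and 42.0 before. Ntrk2 was 35.2, 55.9, and 49.9 at 2 h and 35.0, 39.6, and 33.1 before. Both overlapped with their untreated values, unlike Bdnf.

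At 24 h several of these genes had moved in WT aortas. Sorcs2, a sortilin relative, was 24.5, 34.9, and 26.7, above the untreated values of 14.2, 9.20, and 8.09, at a log2 rise of 1.43 (SE 0.26, adjusted p = 0.00053, limma). In the other direction, Sort1 fell from 136, 140, and 152 to 69.4, 61.8, and 76.3, a difference of -1.04 (SE 0.11, adjusted p = 5.7e-06, limma).

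Ntrk3 changed by -1.28 (SE 0.16, adjusted p = 2.7e-05, limma), Sorl1, another sortilin relative, by -1.32 (SE 0.14, adjusted p = 6.7e-06, limma), and Ntf3 by -0.87 (SE 0.19, adjusted p = 0.0020, limma). The 1 ligand and 4 of 7 receptors tested were thus called in WT, where 35% of all genes were. All 5 calls held in every fit that left out 1 library. The plot of neurotrophins and receptors shows these courses library by library.

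Fewer of these genes passed in the other arms at 24 h. In Cn-Ctl, Ntrk3 (-1.09, SE 0.27, adjusted p = 0.017), Sort1 (-1.03, SE 0.23, adjusted p = 0.0083), and Sorcs2 (1.95, SE 0.56, adjusted p = 0.041, limma) were called, against 5.62% of all genes, and each lost its call in 2 or more of the 4 fits without 1 library, Sorcs2 also under another scaling. In CsA, Sort1 fell by 0.55 (SE 0.11, adjusted p = 0.0070, limma), where 8.98% of all genes were called. In SM-Cn-/-, limma called 0 of 7 of these genes, with 1 receptor at an unadjusted p under 0.05, and edgeR and DESeq2 called 0; 0.79% of all genes were called there, so this count says little about these genes.

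At 24 h Sort1 and Ntrk3 were higher in CsA than in WT aortas, each by 0.60 (SE 0.11 and 0.16, adjusted p = 0.0080 and 0.043, limma), the former lost without WT replicate 2 and the latter in 4 of 6 such fits. In untreated aortas, Ntrk2, the BDNF receptor gene, was higher in CsA (69.8, 46.0, 74.6) than in WT (35.0, 39.6, 33.1), by 0.79 (SE 0.24, adjusted p = 0.024, limma), a call kept in only 2 of 6 such fits. Endothelial markers were also higher in untreated CsA, at 905 to 1044 against 347 to 587, and their part was not tested.

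**Figure D3:**
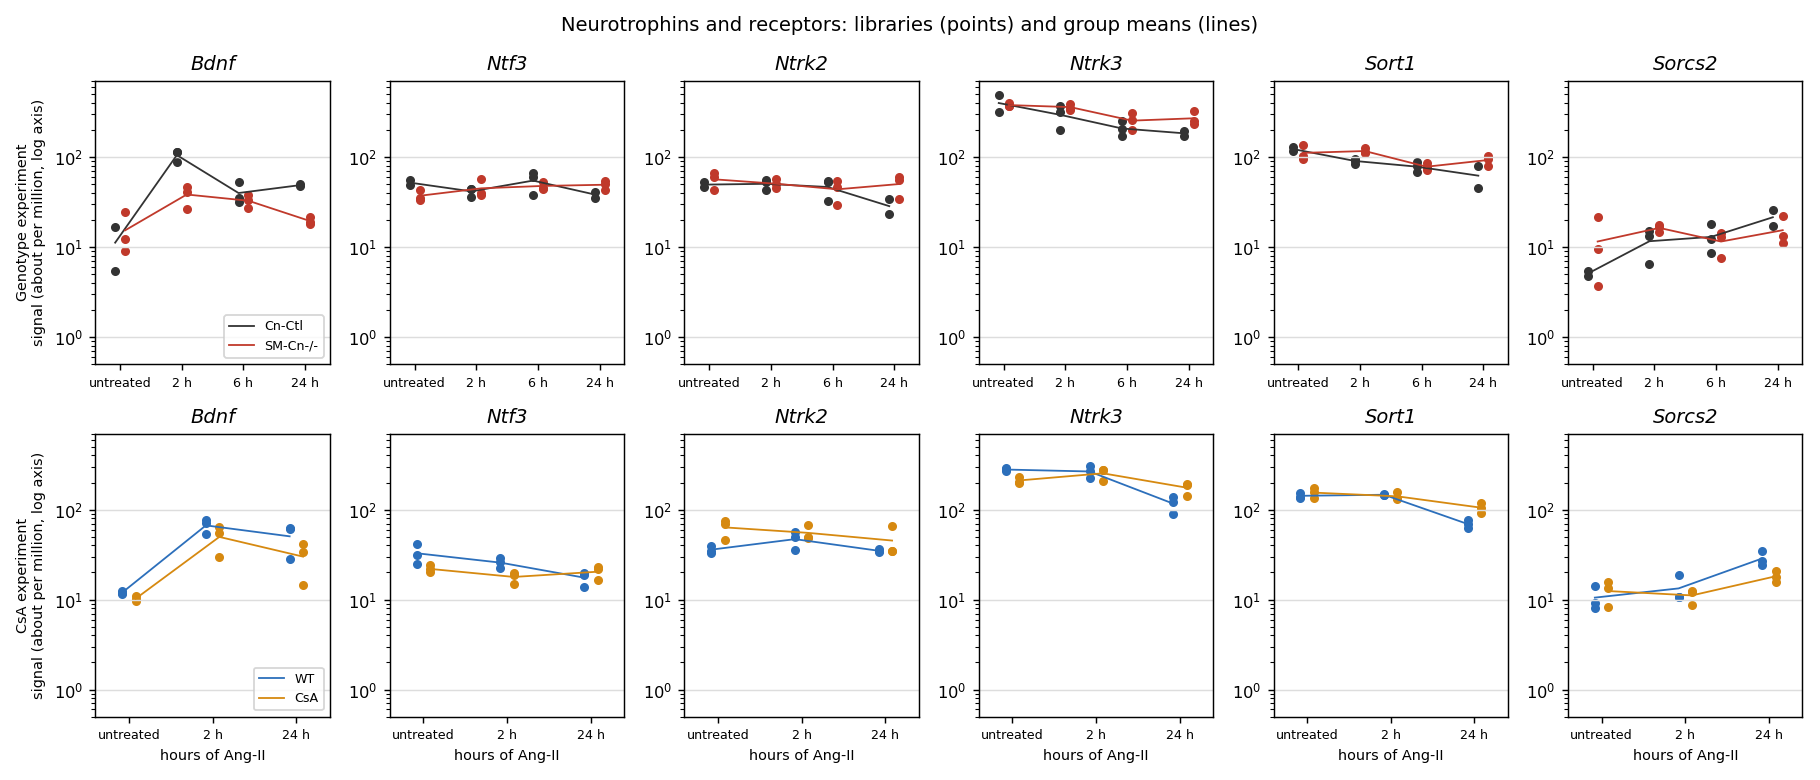
Signal (log axis, about per 1000000 reads) of 2 neurotrophin ligands and 4 receptors against hours of Ang-II. Points are libraries and lines join group means. The group mean of Bdnf is highest at 2 h in all 4 arms, although libraries at 2 h overlap with those of a later time in SM-Cn-/-, WT, and CsA. Sorcs2 in WT is 8.09 to 14.2 before and 24.5 to 34.9 at 24 h, and Sort1 in WT falls from 136 to 152 to 61.8 to 76.3 at 24 h.

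Genes around Bdnf were read from 3 further lists, of precursor processing, of Trk signalling adapters, and of transcription factors known to act on Bdnf promoters, besides the ligands and receptors. Without Bdnf the lists held 69 genes, of which 62 were tested in each experiment. At 2 h, 9 list genes were higher and 2 lower in Cn-Ctl (17.7% of those tested, against 6.23% of all genes), 17 higher and 7 lower in WT (38.7% against 21.4%), and 17 higher and 4 lower in CsA (33.9% against 20.1%). The 11 calls in Cn-Ctl fell to 7 without untreated Cn-Ctl replicate 3. In SM-Cn-/-, limma called 0 (1.13% of all genes), with 9 at an unadjusted p under 0.05, while edgeR called 0 and DESeq2 1. The median log2 difference over the list genes at 2 h was 0.10 in Cn-Ctl and in CsA, with 0.11 in SM-Cn-/- and 0.17 in WT. Over all genes tested the medians were 0.01 (Cn-Ctl), -0.01 (SM-Cn-/-), 0.02 (WT), and -0.02 (CsA). The lists were assembled with results of these data known, and their shares are a description.

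Among the processing genes, Plau, which encodes the plasminogen activator urokinase, stood out. Its signal in Cn-Ctl aortas was 9.25 and 10.7 before and 50.7, 38.2, and 39.0 at 2 h, a rise of 2.04 (SE 0.43, adjusted p = 0.0041, limma) that was lost without untreated Cn-Ctl replicate 2 (adjusted p = 0.0663, limma). In SM-Cn-/- it was 14.4, 7.78, and 10.9 before and 7.61, 6.42, and 5.09 at 2 h, a difference of -0.72 (SE 0.38, adjusted p = 0.44, limma) that did not pass. All SM-Cn-/- libraries at 2 h thus lay below all Cn-Ctl libraries at that time. It rose in WT by 1.96 and in CsA by 1.33 (adjusted p = 8.2e-05 and 0.0031, limma).

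Mmp3, a matrix metalloproteinase, rose in Cn-Ctl by 2.33 (SE 0.51, adjusted p = 0.0057, limma), a call lost without untreated Cn-Ctl replicate 3 (adjusted p = 0.242, limma). In SM-Cn-/- its difference of 1.29 (SE 0.46, adjusted p = 0.21, limma) did not pass, although the libraries at 2 h (68.6 to 107) lay above the untreated ones (21.0 to 63.5), and the responses of the genotypes differed by -1.03 (SE 0.68, adjusted p = 0.77, limma), which did not pass either. Furin, the convertase gene, rose by 0.34 in WT (SE 0.10, adjusted p = 0.017, limma), a call lost under another scaling.

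Among the transcription factors, Fosb, Fosl1, and Fos, genes of AP-1, had the largest rise at 2 h in Cn-Ctl, WT, and CsA. In Cn-Ctl the rise was 4.59 for Fosb, 3.83 for Fosl1, 3.45 for Fos, 2.40 for Fosl2, and 2.27 for Jun (adjusted p from 3.4e-07 to 0.0070, limma). Fosl1 and Junb, another AP-1 gene, were low in the genotype experiment, with median signals of 1.35 and 6.18 and minima of 0.072 and 0.889. The added 0.5 thus weighs on the size of their differences there. In WT Fos rose by 4.47, Fosb by 4.35, and Fosl1 by 4.13, and in CsA by 2.45, 3.44, and 3.26. The calcium-responsive factor Npas4, known to act on Bdnf in neurons, rose by 1.67 in Cn-Ctl (adjusted p = 0.0087) and 1.43 in CsA (adjusted p = 0.0019, limma), and differed by 0.48 in WT, which did not pass. Untreated Npas4 was lower in CsA (13.2, 7.76, and 9.84) than in WT (25.5, 32.8, and 33.6), at -1.55 (SE 0.27, adjusted p = 0.0015, limma). The 2 h responses of Npas4 in CsA and WT differed by 0.95 (SE 0.38, adjusted p = 0.29, limma), which did not pass. Egr1, an immediate early factor, rose by 2.05 in Cn-Ctl, 2.84 in WT, and 1.47 in CsA.

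In Cn-Ctl the calls of Fos, Fosb, Fosl2, and Jun held in all 5 fits without 1 library, those of Fosl1 and Npas4 in 3, and that of Egr1 was lost without untreated replicate 2 (adjusted p = 0.063, limma). Members moved down as well. Crtc3, a CREB coactivator, was lower at 2 h in Cn-Ctl by 1.06, in WT by 0.85, and in CsA by 0.41, at log2 differences of -1.06, -0.85, and -0.41. Gab1, an adapter of receptor tyrosine kinases, was lower in the same arms, at -1.09, -0.81, and -0.51. Of the NFAT genes, Nfatc2 and Nfatc1 were higher in WT (1.10 and 0.59) and CsA (0.86 and 0.70), and Nfatc4 was lower (-0.46 and -0.28). The call of Nfatc1 in WT and that of Nfatc4 in CsA were lost under another scaling, and the latter was kept in only 1 of 6 fits without 1 library. Creb1 itself was called in no arm at 2 h.

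**Figure D4:**
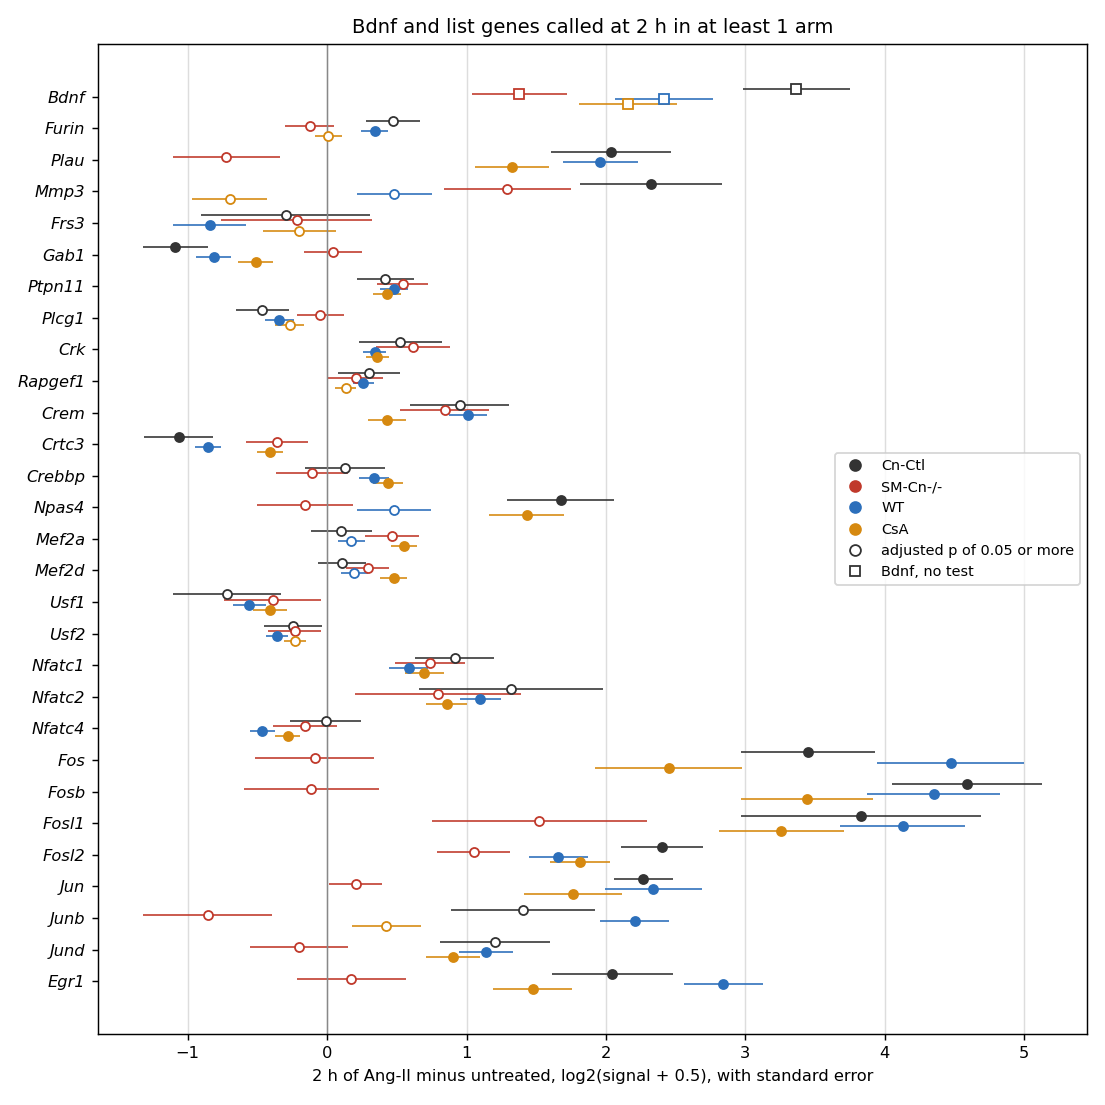
Log2 difference between 2 h of Ang-II and untreated, with standard errors, for Bdnf (squares, no test) and the 28 list genes called in at least 1 arm. Filled circles have an adjusted p under 0.05. Fosb rises by 4.59 in Cn-Ctl and Plau by 2.04, while no circle of the SM-Cn-/- arm is filled.

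Compared directly at 2 h, 12 list genes were lower in SM-Cn-/- than in Cn-Ctl and 0 were higher (19.4% of those tested, against 3.7% of all genes called). The largest differences were those of Fosb (-4.53), Fos (-3.83), Fosl1 (-2.92), Plau (-2.65), and Junb (-2.19), with adjusted p from 4.4e-06 to 0.033 (limma). Plat, which encodes tissue plasminogen activator, was lower by 1.48 (-1.48, SE 0.29, adjusted p = 0.0041, limma). All of these but Fosl1, which kept its call in 1 of 6 and lost it under another scaling, and Junb, which lost it without Cn-Ctl Ang-II 2 h replicate 2, held in every fit without 1 library. Bdnf at -1.47 lay near the value of Plat.

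For 4 of these genes the difference between the responses passed as well, where 0.513% of all genes did: Plau, Fos, Fosb, and Jun. In the CsA experiment 6 list genes were lower in CsA than in WT at 2 h (9.68%, against 1.33% of all genes), with Fos at -2.71, Fosb at -2.05, Egr1 at -2.01, Junb at -1.17, and Plat at -0.75, and 0 differed in response by limma (0.146% of all genes), with 11 at an unadjusted p under 0.05, 0 by edgeR, and 2 by DESeq2. Of these 6 calls, 2, Plat and Egr1, held under each of 3 other scalings, and the other 4 kept their call in only 1 or 2 of 6 fits without 1 library.

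At 6 h, 9 list genes were higher in Cn-Ctl and 2 lower (17.7% of those tested, against 3.97% of all genes), with Fosl1 at 4.19, Fosb at 3.37, Fos at 2.56, Npas4 at 2.25, and Mmp3 at 2.13. The calls of Fosb and Npas4 held in all 5 fits without 1 library, those of Fosl1 and Fos in 4, and that of Mmp3 in 3, while 1 was called in SM-Cn-/- (1.61%, against 2.34%), Crtc2 at 0.72, a call lost in all 6 fits. At 24 h, 4 were higher and 6 lower in Cn-Ctl (16.1%, against 5.62%), led by Mmp3 (3.15), Sorcs2 (1.95), and Plau (1.84) and by Mef2c (-1.49) and Gab1 (-1.44), and 1 was higher in SM-Cn-/- (1.61%, against 0.79%), Mmp3 (1.91), which passed in 1 of 6 fits without a library. Fos, Fosb, and Egr1 were no longer called in any arm at 24 h.

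In WT at 24 h, 16 list genes were higher and 17 lower (53.2%, against 35% of all genes), with Fosl1 at 4.65, Mmp3 at 2.92, Plau at 2.64, Junb at 1.80, and Sorcs2 at 1.43. These 5 calls held in all 6 fits without 1 library. In CsA, 4 were higher and 2 lower (9.68%, against 8.98%), led by Fosl1 at 2.13. Bdnf at 24 h, at 1.94 and 1.38, lay below Fosl1 in both arms. Directly compared at 24 h, 2 list genes were higher and 7 lower in CsA than in WT (14.5%, against 5.58%), led by Fosl1 (-2.58), Plau (-1.62), and Mmp3 (-1.06). Of these, the call of Plau held in all 6 fits, that of Fosl1 was lost without WT Ang-II 24 h replicate 2, and that of Mmp3 was kept in 1. In SM-Cn-/- against Cn-Ctl at 24 h, 2 were higher and 5 lower (11.3%, against 4.94%), led by Fosb (-3.00), Plau (-2.34), and Npas4 (-1.93). The call of Fosb held in all 5 fits, and those of Plau and Npas4 were lost without Cn-Ctl Ang-II 24 h replicate 3.

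The genes whose course was most like that of Bdnf were found by Pearson's r of log2 signal across libraries, taking for each of 13431 genes the lower of its r over 22 and over 18 libraries. Tnfrsf12a, the receptor of the cytokine TWEAK, came first, with r of 0.93 and 0.96. Ccn2 (connective tissue growth factor) followed with 0.91 and 0.95, then Ifrd1, a transcriptional coregulator, with 0.91 and 0.92, and Sdc4, the heparan sulfate proteoglycan syndecan 4, with 0.93 and 0.90. Without the 2 libraries farthest from the median of Bdnf, r of Tnfrsf12a was 0.92 and 0.95. The libraries share treatment, group, and scaling, so that genes with a 2 h peak in most arms are bound to correlate, and the median of all genes was -0.15, with 95% below 0.57, and 99% below 0.75 on this measure.

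Lrrc32, which holds latent TGF-β at the cell surface, Csrnp1, Myl12a, a myosin regulatory light chain gene, Eci2, Atf4, a factor of the integrated stress response, and Rab3gap2 completed the first 10, with a lower r between 0.886 and 0.897. In these 10 genes the log2 difference at 2 h lay between 1.34 and 3.66 in Cn-Ctl and between 0.35 and 2.10 in SM-Cn-/-, values that the choice by likeness over the same libraries fixes in part. In WT and CsA it lay between 0.96 and 2.97 and between 0.85 and 3.16. Of the list genes, Fosl2 (lower r 0.86, order 15) came closest, followed by Fosl1 (0.66, order 372). Ntrk2 (-0.27), and Ntf3 (-0.34) did not follow the course of Bdnf.

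The neighbours on the chromosome had smaller fitted changes than Bdnf at 2 h in each arm. Kif18a, a mitotic kinesin gene that ends 332953 bases before Bdnf, had a mean signal of 2.16 and 1.88 in the 2 experiments. Lin7c, a scaffold protein gene that begins 163846 bases after it, had 65.5 and 71.1, and rose at 2 h in WT by 0.56 (SE 0.11, adjusted p = 0.0013) and in CsA by 0.68 (SE 0.11, adjusted p = 0.00049, limma). Kif18a rose in WT at 24 h, by 0.92 (SE 0.26, adjusted p = 0.012, limma). Neither passed in the genotype experiment, although Lin7c at 2 h differed there by amounts like those in WT and CsA. Its values were 0.75 in Cn-Ctl (SE 0.23, adjusted p = 0.060, limma) and 0.55 in SM-Cn-/- (SE 0.21, adjusted p = 0.24, limma). The annotated antisense gene Gm45346 overlaps the 5′ end of Bdnf and was not among the genes listed, and whether reads were counted by strand is not given in the sources used here, so reads of both could not be told apart there.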

How the data were processed

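Aortic RNA was sequenced from oligo-dT libraries on a Genome Analyzer IIx, aligned with Bowtie 0.12.7 and quantified with RSEM 1.16 per the labels and methods (GRCm38). The signal values deposited by the authors are reads plus 0.5 over a scaled library size. In every library 100% of values converted to whole reads (tolerance 0.01). How the scaling was done is not given in the sources used here, and it is part of every value. Replicates differed by more than sampling noise (chi-square per degree of freedom of at least 6.21).

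Of the genes listed, 14424 and 13741 were protein-coding in GENCODE, and 14424 and 13738 passed a filter of at least 1 in 2 libraries. Log2(signal + 0.5) was fitted with limma 3.58.1 in R 4.3.3, with 1 mean per group, all groups of an experiment together, variances moderated along mean signal, and p-values adjusted by Benjamini-Hochberg across every gene tested (threshold 0.05). Counts could only be recovered from the signals, so edgeR 4.0.16 and DESeq2 1.42.0 on recovered reads served as alternative tests. In simulated data with 200 genes changed by 2 on the log2 scale, the fit found 87.5% in the comparison of SM-Cn-/- at 24 h with untreated (6 false calls) and 97.5% in that of WT (8 false calls).

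Bdnf, the lists, the marker genes, and the tests were chosen with earlier results of these data known. Some genes of the lists are not reported here and enter no list count. The text names Ntf3 and the main receptors, up to 5 list genes with the largest called difference per comparison, further list genes chosen after their values were seen, the 10 genes most like Bdnf, and its neighbours. The response differences at 6 h and 24 h and the fit without the authors' scaling were added after seeing the data. Replicate numbers did not pair libraries. Alternatives were other pseudocounts, filters, scalings, fits of the compared groups alone, count tests, a replicate block, and leaving out each library.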

Additional observations from a re-analysis of the deposited data

Results flagged for a closer look

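These list genes differed in their response to Ang-II between arms, by the limma test of the difference between responses (adjusted p under 0.05), given as log2(signal + 0.5). Bdnf itself passed in none of the 3 such comparisons without 2 h libraries. All those named kept their direction under 3 other scalings.

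At 2 h, the response in SM-Cn-/- was below that in Cn-Ctl for Fosb (-4.70), Fos (-3.54), Plau (-2.76), and Jun (-2.06), where 0.513% of all genes were called. The calls of Fosb and Jun held in all 11 fits without 1 library. That of Fos was lost without untreated Cn-Ctl replicate 2 (adjusted p = 0.140, limma), and that of Plau in 8 of 11 fits and under other scalings.

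At 6 h the response of Fosb (-4.74) was lower in SM-Cn-/-, a call kept in 8 of 11 fits (0.0624% of all genes called). At 24 h those of Mef2c (1.54, kept in 4 of 10) and Gab1 (1.49, kept in 2 of 10 and lost under another scaling) were higher (0.513% of all genes called). The tests at 6 h and 24 h were added after seeing the data.

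Between CsA and WT, 9 list genes differed in their 24 h response (14.5% of those tested, against 9.42% of all genes). It was lower in CsA for Fosl1 (-2.53), Mmp3 (-2.06), Plau (-1.87), and Rapgef1 (-0.38), and higher for Sorl1 (1.25), Ntrk3 (1.00), Mef2c (0.81), Crtc3 (0.70), and Mef2a (0.59). The calls of Fosl1, Mef2c, and Rapgef1 were kept in 9, 5, and 2 of 12 fits without 1 library, that of Fosl1 was lost under another scaling, and the others held in all 12. A response difference also takes in the untreated aortas, where 20 list genes and 25.2% of all genes were called between CsA and WT. There Sorl1 (-0.82), Crtc3 (-0.66), Mef2a (-0.52), and Mef2c (-0.51) were lower in CsA, and Mmp3 (1.00) was higher. Fosl1, Plau, Rapgef1, and Ntrk3 did not pass there. Compared directly at 24 h, Sorl1 (0.43), Crtc3 (0.04), Mef2a (0.06), and Mef2c (0.31) did not pass (limma). No Bdnf group was large enough to be examined for single outlying libraries, since all held 2 or 3.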

How the results depend on the processing

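With no library left out, most Bdnf comparisons kept their direction and call under 12 alternatives. SM-Cn-/- against Cn-Ctl at 24 h fell short with a pseudocount of 0.1 (-1.33), with all genes listed (-1.31), and without the authors' scaling (-1.25, chosen after seeing the data). With only the compared groups fitted, the rise missed the threshold in Cn-Ctl at 6 h (1.95, adjusted p = 0.123) and 24 h (2.27, adjusted p = 0.075) and in CsA at 24 h (1.38, adjusted p = 0.074), where fewer libraries estimate the spread. DESeq2 moved past it SM-Cn-/- at 6 h (1.10, adjusted p = 0.046) and the difference between genotype responses at 24 h (-1.85, adjusted p = 0.048); the cause was not tested.

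Leaving out 1 library gave 2.59 to 4.14 for Cn-Ctl at 2 h, 1.18 to 2.72 at 6 h, and 1.50 to 3.05 at 24 h; 0.88 to 1.56 for SM-Cn-/- at 6 h; -2.76 to -1.22 for the 2 h response difference between genotypes; -0.26 to 1.29 for untreated genotypes; -1.39 to -1.25 for genotypes at 24 h; 1.09 to 1.83 for CsA at 24 h; and -0.48 to 0.064 for the 2 h response difference between CsA and WT. The untreated Cn-Ctl group of 2 libraries decides several of these.

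List genes called at 2 h in SM-Cn-/- numbered 0, 1 with DESeq2, 1 with the replicate block, and 0 to 1 without 1 library; in Cn-Ctl they numbered 11, and 7 to 12 without 1 library, 7 being the count without untreated replicate 3. In the other arms counts stayed within 1.5 times. The replicate block changed no Bdnf call; same-numbered libraries correlated over 0.1 in 27 of 71 pairs and 11 of 45, and 10 of 22 and 6 of 18 libraries correlated best with their own number. Bdnf had few reads in untreated genotype libraries, as few as 37 in Cn-Ctl replicate 2. That library held more reads in all than untreated Cn-Ctl replicate 3, 6565372 against 5268664. Their 95% Poisson intervals for Bdnf, 3.87 to 7.50 and 13.6 to 20.7, did not overlap. The part of depth in the spread of these libraries was not tested.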
